A study of Mus musculus with 31 samples.

Results

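The effect of a Gpr34 deletion on the transcriptome of LPS-treated mouse dendritic cells was examined in 6 of the 31 libraries of the series, the 3 titled LPS wild-type (replicates 1, 2 and 3) and the 3 titled LPS knockout (replicates 2, 3 and 4). Libraries were chosen by these titles alone. All 6 came from male C57BL/6 mice of 8 to 16 weeks, with the genotype given as wildtype or Gpr34-/-. Bone marrow was grown for 10 days in medium with the supernatant of X63 cells that secrete GM-CSF, the cells were replated without serum, and LPS was added on day 11 for 8 h. The labels name neither the LPS dose nor the animal behind each culture, and they do not say how Gpr34 was deleted or in which line. The p-values therefore measure the spread between these libraries, which may be technical. The series also holds 6 naive cultures (3 of each genotype) and 19 spleens, used below only for comparison.

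Gpr34 is an X-linked G protein-coupled receptor of the P2Y12-like family that couples to Gi and responds to lysophosphatidylserine, a lipid set free from the phosphatidylserine of activated or dying cells. It is best known from microglia and other myeloid cells. LPS, a component of the outer membrane of Gram-negative bacteria, is sensed by TLR4 with its partner MD-2 and drives NF-kB and interferon regulatory factors, so that dendritic cells make cytokines and chemokines and display more antigen and costimulatory molecules to T cells.

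Total counts ranged from 38998746 to 50809304 in the wild-type and from 44460067 to 54513205 in the libraries labelled knockout. The dendritic cell label was met by Itgax (CD11c), at 614 to 1036 CPM (library-size scaled counts with TMM composition factors) in the 6 libraries, by Zbtb46, a dendritic cell transcription factor, at 46.3 to 69.5 CPM, and by Flt3, a dendritic cell growth factor receptor, at 10.7 to 25.3 CPM. Siglech, a plasmacytoid dendritic cell marker, was at 0 in all 6. The LPS label was met by Il12b, a subunit of IL-12, at 5160 to 6484 CPM against 38.9 to 137 CPM in the 6 naive libraries. Il6 was at 421 to 609 CPM against 3.36 to 12.2 CPM. These markers were picked to check the labels after their values had been seen.

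Gpr34 did not follow the genotype label. The gene, ENSMUSG00000040229, lies on the plus strand of the X chromosome, between positions 13632089 and 13640858 of GRCm38. Its counts were 125, 65 and 65 in the wild-type libraries in replicate order, and 0, 117 and 104 in the libraries labelled knockout (replicates 2, 3 and 4). Only replicate 2 was without Gpr34 reads, where a count of 0 allows up to 3 counts, or 0.0675 CPM without composition factors. Replicates 3 and 4 lay within the wild-type range, at 2.34 and 2.22 CPM against 3.44, 1.46 and 1.97 CPM in the wild-type. The groups overlapped, with means of 2.29 ± 1.03 CPM (SD, n = 3) in the wild-type and 1.52 ± 1.32 CPM (SD, n = 3) in the libraries labelled knockout. The log2 fold change was -0.58 (SE 1.302, edgeR adjusted p = 0.910). In naive cells, Gpr34 had 324, 199 and 226 counts in the wild-type and 0, 120 and 4 counts in the libraries labelled knockout. The 120 counts came to 1.48 CPM, below the 3.17 to 4.82 CPM of the naive wild-type. The libraries are therefore called labelled knockout throughout, and the leading counts are also given without the 3 dendritic cell libraries so labelled that held over 100 Gpr34 counts (LPS replicates 3 and 4, and naive replicate 3). The source of their Gpr34 reads was not tested. In spleen the gene did follow the label, with a log2 fold change of -2.51 (edgeR adjusted p = 3.99e-05). Every spleen labelled knockout still held Gpr34 reads, at 42 to 156 counts against 308 to 986 counts in the wild-type spleens.

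The receptor gene next to Gpr34 behaved likewise after LPS. Gpr82 (chromosome X from 13661363 to 13667433, plus strand), an orphan receptor gene, was at 1.79, 0.806 and 1.06 CPM in the wild-type and at 0, 1.42 and 1.24 CPM in the libraries labelled knockout. In naive cells, replicate 2 labelled knockout had no Gpr34 read but 1.04 CPM of Gpr82. Both genes lie inside Cask, a scaffold protein gene on the minus strand (13517080 to 13851367), which was at 133, 134 and 92.8 CPM in the wild-type and at 129.7, 152 and 126 CPM in the libraries labelled knockout. No source used here states whether counting was by strand. Replicate 2 labelled knockout held 129.7 CPM of Cask after LPS, with Gpr34 and Gpr82 both at 0. Whether reads of Cask entered the counts of the 2 receptor genes in the other libraries was not tested. Of 27 listed genes around Gpr34, 20 were tested with edgeR, and 3 were higher and none lower at an unadjusted p under 0.05, which 6.61% and 4.67% of all 16965 tested genes were. Their median log2 fold change was 0.02, against -0.01 over all genes tested. The 3 were Dynlt3, a dynein light chain, at 16.3, 15.6 and 20 CPM against 26.2, 26.8 and 21.1 CPM, Usp9x, a deubiquitinase (0.49, SE 0.17), and Ddx3x, an RNA helicase (0.31, SE 0.13). None passed after adjustment.

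Over the 12 dendritic cell libraries, the 5 genes whose log2 CPM followed that of Gpr34 most closely were Msh5 (Pearson r = 0.892), Ddx28 (0.868), Dpp9 (0.852), Gnb4 (0.830) and Vwa7 (0.823). They are given as a description only, over libraries that share culture conditions. Msh5 and Vwa7 are neighbours on chromosome 17. After LPS, Msh5, a meiotic recombination gene, was at 9.77, 2.98 and 1.21 CPM in the wild-type and at 0.178, 2.66 and 9.54 CPM in the libraries labelled knockout. It was thus lowest in replicate 2, as Gpr34 was, while replicate 4 was close to wild-type replicate 1.

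**Figure D1:**
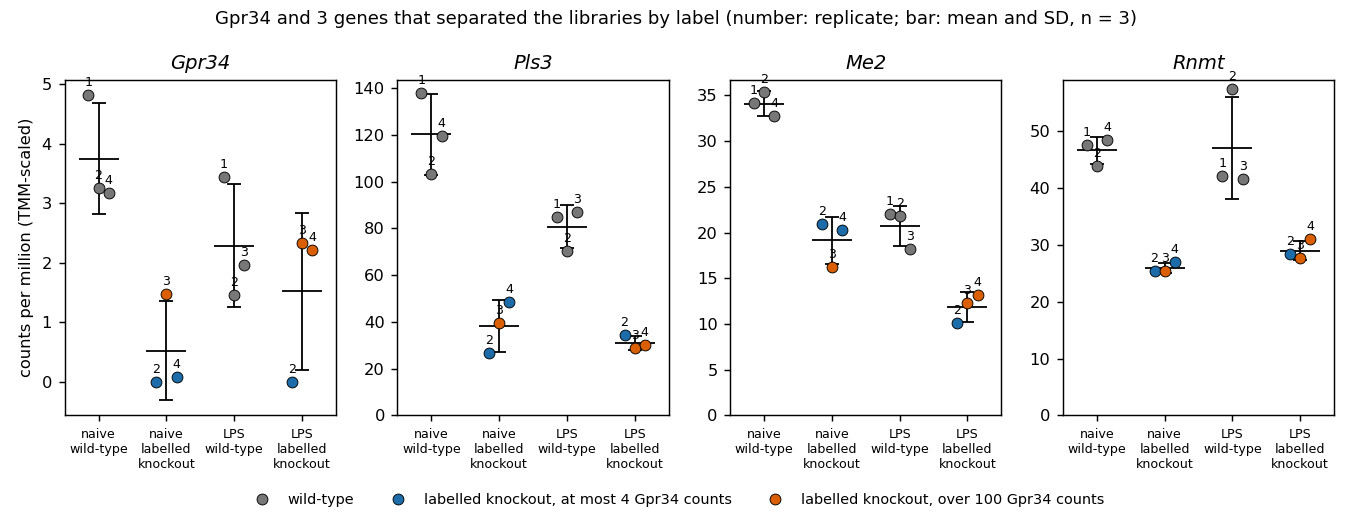
Each point is 1 library, numbered by replicate. The vertical axes give TMM-scaled CPM for Gpr34, Pls3, Me2 and Rnmt, and bars give the mean and SD of 3 libraries. Gpr34 in 3 libraries labelled knockout (orange) reached 1.48 to 2.34 CPM, while Pls3, Me2 and Rnmt, chosen after their values had been seen, do not overlap between labels. The naming rule required this for LPS-treated cells.

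A second library feature concerned chromosome 18. In replicate 2 labelled knockout, a run of neighbouring genes stood far above the other 5 LPS libraries: Tcof1, Arsi, Camk2a, Slc6a7, Cdx1 and Pdgfrb each exceeded every other LPS library by more than 4-fold, and Csf1r, the next gene, was the highest of the 6. These genes were singled out after their values had been seen. Camk2a, a kinase subunit best known from neurons, was at 898 CPM there and at 0.140 to 1.299 CPM elsewhere. Pdgfrb, a receptor of mural cells and fibroblasts, was at 517 CPM against 5.69 to 8.52 CPM, and Tcof1, a nucleolar protein gene, at 1093 CPM against 58.8 to 74.3 CPM. Csf1r, the M-CSF receptor of macrophages, was at 1076 CPM against 392 to 666 CPM. The genes on either side were not raised: Cd74, the invariant chain, was at 10781 CPM there and at 10645 to 12693 CPM elsewhere, and Hmgxb3 was at 40.1 CPM in that library and 39.9 CPM in replicate 3 labelled knockout. The 7 genes held 0.338% of the counts of this library and 0.0421% to 0.0627% of those of the other 5. In naive replicate 2 labelled knockout the share was 0.0990%, within the 0.0595% to 0.105% of the naive libraries. Runs of 3 or more neighbouring genes, each over 4 times every other library of its treatment, also occurred elsewhere, at lower levels. Wild-type LPS replicate 2 had 3 such runs, the longest of 5 genes on chromosome 13 from Trim38 to Slc17a4, summing to 16.0 CPM against at most 0.0599 CPM in the other 5. Wild-type LPS replicate 1 had 1 run, from Cdhr5 to Drd4, at 52.0 CPM against at most 0.717 CPM. The 6 genes from Tcof1 to Pdgfrb summed to 2742 CPM against 65.8 to 82.7 CPM. Replicate 2 labelled knockout had 1 further run, of 3 genes, and 3 of the naive libraries had 1 each.

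**Figure D2:**
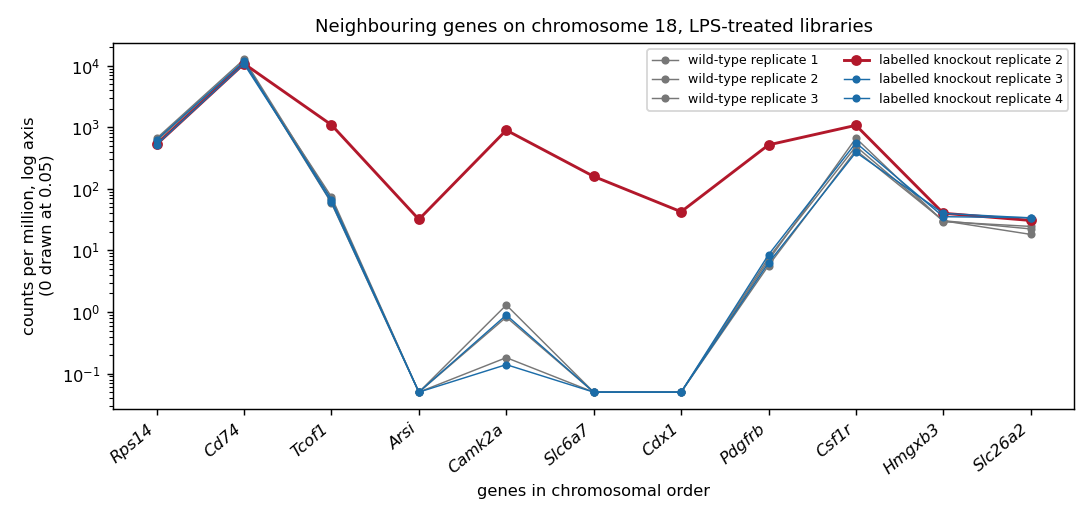
CPM (log axis, 0 drawn at 0.05) of 11 neighbouring genes of chromosome 18 in the 6 LPS-treated libraries, in chromosomal order. Replicate 2 labelled knockout (red) leaves the other 5 libraries from Tcof1 to Csf1r and rejoins them at Hmgxb3.

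The comparison of the 2 groups asked which genes differ between LPS-treated dendritic cells of the 2 genotypes as labelled. With edgeR's quasi-likelihood test, 0 of 16965 genes passed an adjusted p of 0.05 (0%), and the smallest adjusted p, shared by 16 genes, was 0.152. An unadjusted p under 0.05 was reached by 1914 genes (11.3%), of which 1121 were higher (6.61%) and 793 lower (4.67%) in the libraries labelled knockout. limma voom with sample weights also called 0 genes (0%). DESeq2 called 372 of 16918 genes (2.2%), 221 higher (1.31%) and 151 lower (0.893%), and 113 of the 372 differed at least 2-fold. Of these 372, 338 had groups that did not overlap, against 2976 of all genes (17.5%). Without the 3 libraries that held over 100 Gpr34 counts, 1 LPS library labelled knockout was left, assumed to vary like the other groups, and edgeR called 6 genes, with 1736 at an unadjusted p under 0.05. Of these, 5 were members of the raised stretch on chromosome 18 (Tcof1, Camk2a, Pdgfrb, Arsi and Slc6a7), and the other was Depdc1b, a cell cycle gene, lower at an adjusted p of 0.0212.

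Leaving out single libraries gave the only other edgeR calls among the alternatives run, and Dst, Chil6 and Depdc1b are named for this after their values were seen. Leaving out naive replicate 2 labelled knockout, whose spread enters the shared fit, gave Pls3 (adjusted p = 0.0445). Leaving out naive replicate 3 labelled knockout gave Dst and Kpna4 (0.0482 each). Leaving out LPS replicate 2 labelled knockout gave Chil6 (0.0111), and leaving out LPS replicate 4 labelled knockout gave Ak1 (0.0383).

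By the naming rule, the 15 genes with the smallest p among those higher without overlap in the libraries labelled knockout had edgeR adjusted p-values of 0.152 to 0.157. They thus did not pass, while DESeq2 called all 15, at 1.37e-08 to 0.000411. Flcn (folliculin) and its partner Fnip1 form a complex at the lysosome that takes part in amino acid signalling to mTORC1. Fnip1 was at 41.1, 49.5 and 40.5 CPM in the wild-type and at 94.4, 80.3 and 89.9 CPM in the libraries labelled knockout, a log2 fold change of 1.01 (SE 0.17). Flcn was at 44.7, 45.3 and 58.5 CPM against 93.8, 83.0 and 74.0 CPM. Slc38a2, a neutral amino acid transporter, was at 38.6, 36.4 and 44.7 CPM against 65.2, 73.2 and 59.5 CPM.

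Sphk1, the kinase that makes sphingosine 1-phosphate, was at 25.8, 23.05 and 26.2 CPM in the wild-type and at 46.1, 52.8 and 35.1 CPM in the libraries labelled knockout (log2 fold change 0.84, SE 0.14). Unlike most of the 15, it hardly differed in naive cells, where the log2 fold change was 0.05 (SE 0.14). Its difference between the 2 states was 0.79 (SE 0.20), with an unadjusted p of 0.00225 and an adjusted p of 0.9999. Zfp367, a zinc finger factor, was at 1.38, 2.35 and 2.06 CPM against 4.98, 5.85 and 5.33 CPM and did not differ in the same direction in naive cells (-0.04, SE 0.25).

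Ythdf3, a reader of N6-methyladenosine in mRNA, had the smallest p of all genes (1.54e-05). It was at 32.5, 41.6 and 35.6 CPM against 76.3, 61.1 and 64.6 CPM, a log2 fold change of 0.88 (SE 0.12). Atp11b, a phospholipid flippase subunit that moves phosphatidylserine between membrane leaflets, was at 148, 175 and 166 CPM against 272, 331 and 298 CPM (0.88, SE 0.14). The largest fold was that of Gspt2, a translation release factor gene, with 10, 8 and 1 counts in the wild-type and 69, 75 and 80 counts in the libraries labelled knockout. Gspt2 is a close copy of Gspt1, so its counts are uncertain where reads of both were split. Tmc3, of the transmembrane channel-like family, was at 1.54, 1.61 and 0.908 CPM against 4.04, 3.53 and 5.47 CPM. The other 6, Acap2, Trp53inp1, Erbin, Kpna4, Clcn4 and Bmt2, had log2 fold changes of 0.51 (Kpna4, an importin) to 0.86 (Bmt2). None of the 15 overlapped between groups, as the naming rule required.

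The 15 named genes that were lower in the libraries labelled knockout had edgeR adjusted p-values of 0.152 to 0.202 and were likewise all called by DESeq2, at 3.98e-08 to 0.00989. Pls3 (plastin 3, an actin-bundling protein; ENSMUSG00000016382, chromosome X from 75785654 to 75875182, minus strand) was at 84.8, 70.3 and 87.0 CPM in the wild-type and at 34.5, 28.7 and 29.9 CPM in the libraries labelled knockout. Its log2 fold change was -1.38 (SE 0.20), and in naive cells it was -1.65 (SE 0.20). Me2, a mitochondrial malic enzyme, was at 22.04, 21.8 and 18.2 CPM against 10.1, 12.3 and 13.2 CPM. Rnmt, the mRNA cap methyltransferase, was at 42.1, 57.4 and 41.6 CPM against 28.3, 27.7 and 31.0 CPM. After LPS the groups could not overlap, since the naming rule required it. In naive cells, which the rule did not use, Pls3 was at 138, 103 and 119 CPM in the wild-type and at 26.6, 39.4 and 48.5 CPM in the libraries labelled knockout. Me2 was at 34.2, 35.4 and 32.7 CPM against 20.96, 16.2 and 20.2 CPM, and Rnmt at 47.5, 43.9 and 48.3 CPM against 25.4, 25.3 and 27.0 CPM. These 3 were picked for a look at naive cells after their values had been seen.

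Timm17a, an import channel subunit of the inner mitochondrial membrane, was at 31.7, 29.3 and 31.1 CPM against 20.5, 19.5 and 19.4 CPM, a log2 fold change of -0.63 (SE 0.10). Ethe1, a mitochondrial sulfur dioxygenase, was at 10.1, 13.8 and 16.0 CPM against 6.38, 5.21 and 4.18 CPM. Pmvk, phosphomevalonate kinase of the isoprenoid and sterol pathway, was at 138, 135 and 131 CPM against 107, 95.6 and 105 CPM. The smallest SE of the 15 was that of Rogdi, at a log2 fold change of -0.33 (SE 0.07). The largest difference was that of Ak1, adenylate kinase 1, at 3.00, 2.42 and 3.69 CPM against 0.432, 0.359 and 1.32 CPM (-2.10, SE 0.43). Kank2, an adaptor of focal adhesions, was at 1.21, 1.03 and 1.45 CPM against 0.330, 0.240 and 0.320 CPM, and in naive cells it was not lower (0.28, SE 0.33). The remaining 6, St3gal2, Pcbd2, Tmem237, Wdr55, Slc14a1 and Ranbp1, had log2 fold changes of -1.42 (Slc14a1, a urea transporter) to -0.40 (Ranbp1).

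**Figure D3:**
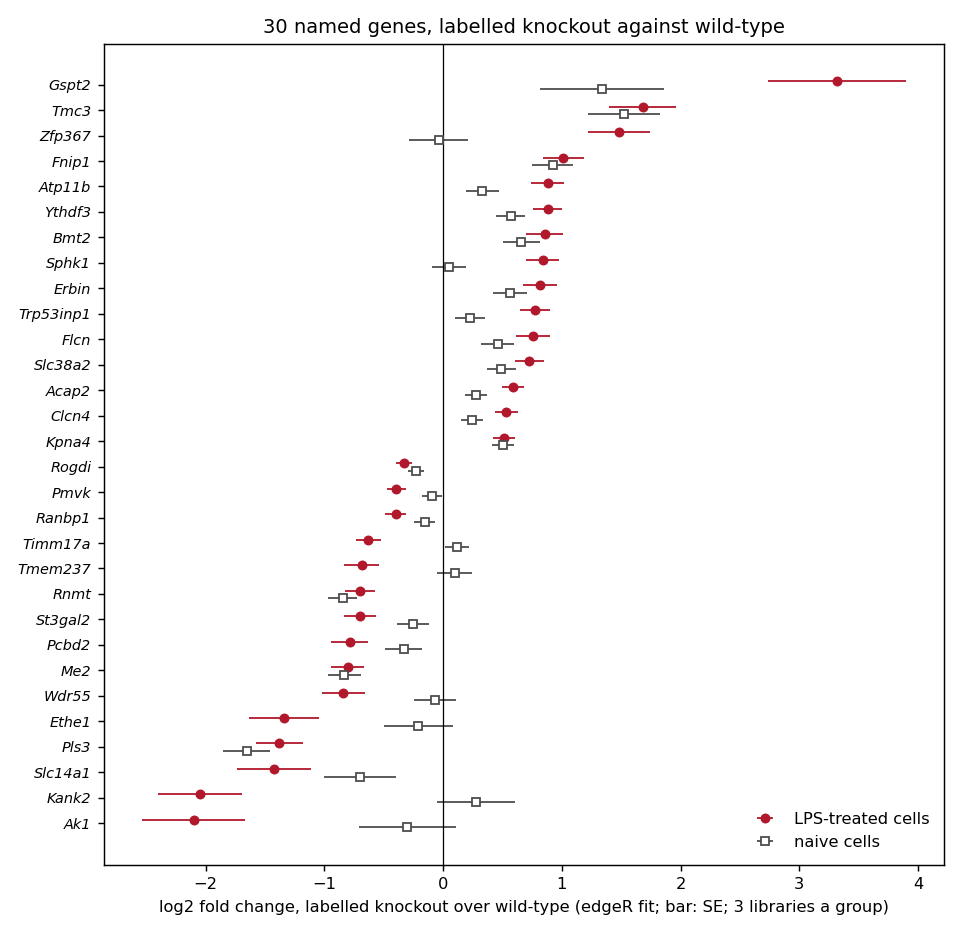
Log2 fold change of the 30 named genes, labelled knockout over wild-type, in LPS-treated (filled) and naive (open) dendritic cells, with SE from the edgeR fit. The LPS values run from -2.10 (Ak1) to 3.32 (Gspt2), and Timm17a, Kank2, Tmem237 and Zfp367 lie on the other side of 0 in naive cells.

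The naive libraries are separate from the LPS libraries, so the named genes could be looked up there. The look-up is not independent, since 1 fit of all 12 libraries gave each gene 1 shared estimate of spread. Genes named for a small p after LPS carry that spread into the naive p-values. The labels do not say whether naive and LPS cultures came from the same animals. Of the 3 naive libraries labelled knockout, 2 shared the slopes with base composition and length described below, as did 1 naive wild-type library. The part of these slopes in the shared signs was not tested. Of the 15 higher genes, 14 had the same sign in naive cells and 12 had an unadjusted p under 0.05 there. Of the 15 lower genes, 12 had the same sign and 5 had an unadjusted p under 0.05. In naive cells 6.71% of all genes reached that p, 0 genes passed after adjustment in edgeR (0%), DESeq2 called 76 of 13654 (0.557%) and limma voom 1 of 16965 (0.00589%), and 60.4% of all genes had the same sign in both states. Among the genes with an unadjusted p under 0.05 after LPS, 79.7% of the higher and 74.7% of the lower ones had the same sign in naive cells. The interaction of label and LPS was called for 0 of 16965 genes by edgeR (0%), with 678 at an unadjusted p under 0.05 (4%) and a smallest adjusted p of 0.9999. DESeq2 called 21 of 16918 (0.124%), and limma voom 0 (0%). One naive library, replicate 3 labelled knockout, had 477 CPM of Cd40, a costimulatory receptor, against 83.3 to 114 CPM in the other 5 naive libraries. Without it, edgeR called 0 genes in naive cells as well, with 1049 at an unadjusted p under 0.05 against 1139 with it. In spleen, where edgeR called 36 of 20371 genes between the genotypes (0.177%), 12 of the 15 higher and 12 of the 15 lower genes had the opposite sign and none was called. Over all 16317 genes tested in both, 38% had the same sign in spleen as after LPS, and of those with an unadjusted p under 0.05 after LPS, 24.1% of the higher and 26.3% of the lower ones did.

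The differences after LPS ran with gene length and base composition. Genes with an unadjusted p under 0.05 that were higher in the libraries labelled knockout had a median length of 4640 bases and a GC content of 45.0%. Those that were lower had 2480 bases and 51.8%, and all tested genes had 2905 bases and 49.6%. Among the longest decile of genes (median 7862 bases) 17.8% were higher at that p and 3.24% lower. Among the shortest decile (median 336 bases) 1.25% were higher and 3.24% lower. The rank correlation across 16022 genes between GC content and the deviation from the wild-type mean was -0.142, -0.157 and -0.167 in the 3 libraries labelled knockout. In wild-type replicates 1, 2 and 3, each against the other wild-type libraries, it was 0.0132, -0.131 and 0.107, so wild-type replicate 2 had nearly the same slope. In naive libraries labelled knockout (replicates 2, 3 and 4) it was -0.0684, -0.190 and -0.204, and in the naive wild-type (replicates 1, 2 and 4) -0.113, 0.0575 and 0.0626. For length it was 0.121, 0.140 and 0.118 in the libraries labelled knockout and 0.0257, 0.0297 and -0.0659 in the wild-type. In naive cells it was -0.0247, 0.125 and 0.145 against 0.123, -0.0958 and -0.0309. Genes are not independent replicates, and these are descriptions. With the trend removed from every library, 29 of the 30 named genes kept an unadjusted edgeR p under 0.05, and Kpna4 did not (p = 0.0505). Keeping it was nearly fixed in advance, since the naming rule took these genes for small p-values in the same counts. The log2 fold change shrank by more than 1.5 times in 5 of them, from 0.51 to 0.19 for Kpna4, from 0.77 to 0.50 for Trp53inp1, from 0.82 to 0.54 for Erbin, from -0.33 to -0.19 for Rogdi and from -0.39 to -0.26 for Pmvk. With the replicate block as well, Rogdi (p = 0.0896), Pmvk (p = 0.0894) and Kpna4 (p = 0.136) did not reach that p. The source of the slope was not tested.

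**Figure D4:**
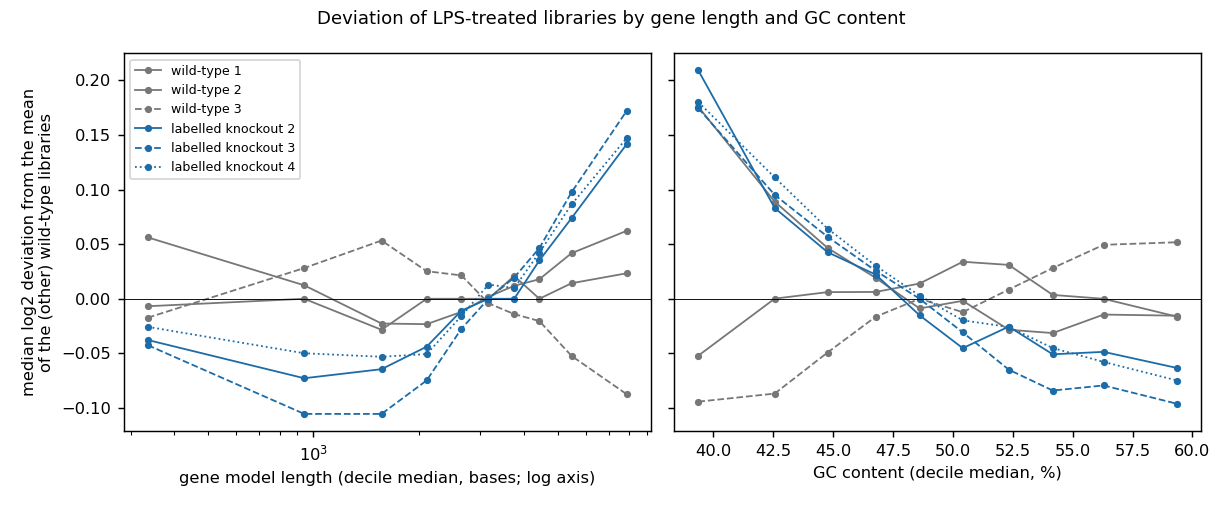
Median log2 deviation of each LPS-treated library from the mean of the wild-type libraries (for a wild-type library, of the other 2), over deciles of genes by length and by GC content. The 3 libraries labelled knockout (blue) end at 0.14 to 0.17 in the longest genes, where wild-type libraries (grey) lie between -0.09 and 0.06. In the decile of lowest GC content wild-type replicate 2 lies at 0.18, beside 0.17 to 0.21 in the libraries labelled knockout.

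Of 15 listed lysophosphatidylserine receptors and enzymes, 12 were tested. None passed, and their median log2 fold change was -0.07. At an unadjusted p under 0.05, 1 was higher, where 6.61% of all genes were. The higher gene was P2ry10b, the copy of the lysophosphatidylserine receptor gene P2ry10, at 8.09, 8.58 and 6.32 CPM against 12.7, 13.4 and 11.2 CPM (0.70, SE 0.22, edgeR adjusted p = 0.279). P2ry10 itself was at 43.2, 51.0 and 36.6 CPM against 44.2, 81.6 and 44.6 CPM, high in 1 library labelled knockout only. Reads of these related neighbours may be split by the counting. Of 17 tested genes of lysophosphatidic acid and sphingosine 1-phosphate receptors and enzymes, 1 was higher (Sphk1) and 1 lower at that p, with a median of 0.03. The lower one was Lpar5, a lysophosphatidic acid receptor with 8, 0 and 12 counts in the wild-type and none in the libraries labelled knockout. None of the 15 P2Y12-like receptors reached an unadjusted p under 0.05. Of 35 genes of Gi and G beta-gamma signalling, 3 were higher and 3 lower at that p, against 6.61% and 4.67% of all genes. Without overlap between groups, 2 were higher and 6 lower, against 8.97% and 8.57% of all genes. Adcy3, an adenylyl cyclase, was at 0.523, 1.43 and 1.09 CPM against 1.55, 5.11 and 2.71 CPM, and Gnb2, a G protein beta subunit, had a log2 fold change of -0.16 (SE 0.07).

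The LPS programme itself gave few small p-values between the groups. The 34 genes of TLR4 signalling and NF-kB regulation had a median log2 fold change of -0.04. At an unadjusted p under 0.05, 1 was higher, where 6.61% of all genes were, and none was lower. The higher gene was Chuk (IKK alpha), at 101, 122 and 73.3 CPM against 137, 120 and 128 CPM, with overlapping groups. Of 28 inflammatory cytokines and effectors none reached that p, and their median was -0.09. Il6 was at 464, 531 and 609 CPM against 551, 421 and 462 CPM. Tnf was at 576, 480 and 545 CPM against 579, 275 and 386 CPM, and Il12b at 5661, 5486 and 6484 CPM against 5160, 5850 and 5215 CPM. All 3 overlapped between the groups, with SEs of 0.29 to 0.34 on the log2 scale, so these libraries could not resolve small differences.

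Over all 16965 tested genes, 51.7% had a log2 fold change below 0 and 48.0% above 0, and 4.67% were lower and 6.61% higher at an unadjusted p under 0.05. Of 20 chemokines, 17 were below 0, with a median log2 fold change of -0.27, and 1 reached that p. Without the libraries labelled knockout that held over 100 Gpr34 counts the median was -0.10, against -0.05 over all genes. The gene that reached that p was Cxcl10, the interferon-induced ligand of CXCR3, at 419, 299.6 and 325 CPM in the wild-type and at 238, 161 and 272 CPM in the libraries labelled knockout (-0.64, SE 0.19, edgeR adjusted p = 0.276). Of 11 chemokine receptors 1 was higher at that p, Cxcr4, at 19.3, 17.5 and 21.8 CPM against 20.9, 43.8 and 27.4 CPM. Ccr7, which guides dendritic cells to lymph nodes, was at 1554, 1442 and 1409 CPM against 1309, 2004 and 1452 CPM. Replicate 3 labelled knockout was the highest of the 6 in both receptors and the lowest in Cxcl10 and Tnf.

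Of 31 interferon-stimulated genes, 24 were below 0 (51.7% over all genes), with a median of -0.15. The median was -0.19 without the libraries labelled knockout that held over 100 Gpr34 counts. At an unadjusted p under 0.05, 3 were lower, where 4.67% of all genes were. Igtp, an immunity-related GTPase, was at 92.2, 91.6 and 91.8 CPM against 74.0, 58.8 and 72.9 CPM. Its log2 fold change of -0.42 (SE 0.10) was called by DESeq2 (adjusted p = 0.00933) and not by edgeR (0.230). Usp18, a brake on interferon signalling, was at 340, 306 and 298 CPM against 262, 221 and 276 CPM. The third was Oas1a, a sensor of double-stranded RNA, at -0.27 (SE 0.12).

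Of 15 MHC class I presentation genes, which load peptides for T cells, 13 were below 0 (51.7% over all genes) and 4 lower at an unadjusted p under 0.05 (4.67% over all genes). The median was -0.16, with or without the libraries labelled knockout that held over 100 Gpr34 counts. Psmb10, an immunoproteasome subunit, was at 163, 158 and 165 CPM against 140, 124 and 140 CPM (-0.27, SE 0.08, edgeR adjusted p = 0.274). Tap2, a peptide transporter, H2-K1, a classical class I heavy chain, and Tapbp (tapasin) each had a log2 fold change of -0.26. In naive cells these 4 lay between -0.11 and -0.01. Of 14 MHC class II genes 1 was lower at that p, H2-DMa, at 81.8, 83.7 and 91.8 CPM against 70.5, 67.4 and 72.0 CPM, and the median was -0.14. Of 27 maturation and costimulation genes none reached it, although 7 were lower and 1 higher without overlap between groups, where 8.57% and 8.97% of all genes were.

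Genes of integrins, the cytoskeleton and motility had 8 of 38 members lower at an unadjusted p under 0.05 and 14 without overlap, while none was higher at that p and 3 were higher without overlap. Over all genes 4.67% were lower and 6.61% higher at that p, and 8.57% lower and 8.97% higher without overlap. Their median was -0.13, with or without the libraries labelled knockout that held over 100 Gpr34 counts. Beside Pls3, these included Vasp, an actin filament elongation factor, at 335, 351 and 343 CPM against 305, 250 and 290 CPM. Pfn1 (profilin 1), which delivers actin monomers, was at 947, 956 and 935 CPM against 797, 798 and 832 CPM. Cfl1 (cofilin 1), which severs filaments, was at 432, 400 and 409 CPM against 367, 352 and 371 CPM. DESeq2 called these 4 genes, and none passed in edgeR, where the adjusted p-values were 0.152 (Pls3), 0.255 (Vasp), 0.279 (Pfn1) and 0.333 (Cfl1). With the length and GC trend removed, Pfn1 went from -0.23 to -0.10.

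Genes of cholesterol synthesis and efflux had a median log2 fold change of -0.48, with 18 of 20 tested members below 0, against 51.7% of all genes. At an unadjusted p under 0.05, 2 were higher and 3 lower, against 6.61% and 4.67% of all genes. Fdft1 (squalene synthase) was at 20.4, 20.2 and 16.5 CPM against 15.9, 6.49 and 11.9 CPM. Nsdhl, a sterol dehydrogenase, was at 13.8, 10.9 and 10.44 CPM against 8.92, 6.29 and 9.16 CPM. The exporter Abca1 was at 69.1, 76.2 and 91.5 CPM against 123, 143 and 152 CPM (0.82, SE 0.17, edgeR adjusted p = 0.185, DESeq2 0.00184). Mylip, a ligase that degrades the LDL receptor, was at 16.9, 14.3 and 20.8 CPM against 26.4, 25.9 and 25.7 CPM. Without the libraries labelled knockout that held over 100 Gpr34 counts, the list's median was -0.11.

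Stress genes of the endoplasmic reticulum and the integrated stress response were above 0 in 18 of 20 cases, against 48.0% of all genes. Their median was 0.24, and 4 were higher at an unadjusted p under 0.05, against 6.61% of all genes. Slc7a11, the cystine importer, was at 141, 148 and 185 CPM against 248, 223 and 218 CPM (0.54, SE 0.18). Dnajb9, a chaperone of the lumen, was at 10.5, 8.96 and 9.89 CPM against 12.3, 33.3 and 14.5 CPM. Herpud1 and Hsp90b1 were at 0.51 and 0.25. Dnajb9 and Herpud1 were highest in replicate 3. The list's median was 0.06 without the libraries labelled knockout that held over 100 Gpr34 counts.

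For the next lists, members at an unadjusted p under 0.05 are named, where 6.61% of all genes were higher and 4.67% lower. Of 29 immediate early genes 2 were higher, Nr4a2 (0.83, SE 0.29) and Nr4a3 (0.41, SE 0.16), both nuclear receptors. Of 32 cell cycle genes 3 were lower, Foxm1, a mitotic transcription factor, at 4.26, 2.28 and 3.66 CPM against 0.686, 1.14 and 1.70 CPM, Cenpf, a kinetochore protein, at -2.18 (SE 0.83), and Mcm3, a replicative helicase subunit, at -0.37 (SE 0.17). Of 14 heat shock genes Hspa8 (-0.27) and Hspe1 (-0.31) were lower. Of 24 genes of glycolysis and hypoxia Ldha, which makes lactate, was at -0.37 and Hk1, a hexokinase, at -0.29, and Hif1a, the hypoxia factor, at 0.32.

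**Figure D5:**
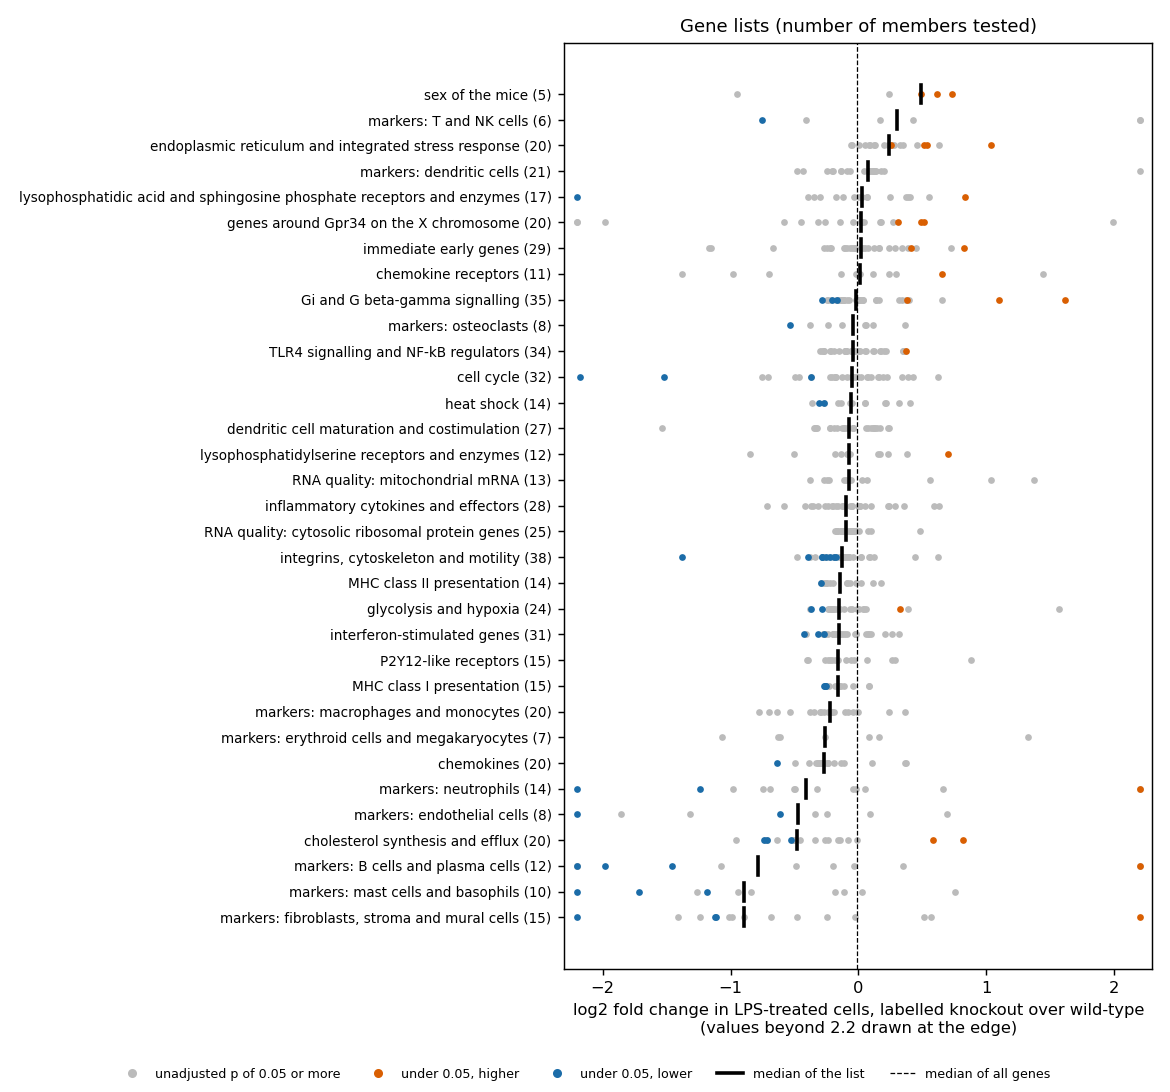
Log2 fold change in LPS-treated cells of each tested member of 33 gene lists (points), with the list's median (bar) and the median of all genes, -0.01 (dashed line). Medians run from -0.90 for stromal markers to 0.49 for genes of the sex chromosomes, with orange and blue for an unadjusted p under 0.05, higher and lower.

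Markers of several other cell types had lower medians in the libraries labelled knockout, and their part in the results above was not tested. Fewer cells of a type and less RNA per cell cannot be told apart in bulk libraries. The 12 tested B and plasma cell markers had a median of -0.78. At an unadjusted p under 0.05, 3 were lower and 1 higher, against 4.67% and 6.61% of all genes. The markers at that p were Igkc, Jchain, Ms4a1 and Ebf1. Igkc and Jchain were lower, while Ms4a1 and Ebf1 went in opposite directions. Igkc, the kappa light chain constant region, was at 7.98, 9.32 and 6.66 CPM against 2.21, 0.879 and 2.98 CPM (-1.98, SE 0.48, edgeR adjusted p = 0.224), and Jchain was at 2.23, 2.58 and 1.72 CPM against 0.991, 0.320 and 1.07 CPM. The summed markers reached 32.7 to 51.4 CPM in the wild-type and 14.7 to 43.6 CPM in the libraries labelled knockout.

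The 10 tested mast cell and basophil markers had a median of -0.89. At an unadjusted p under 0.05, 3 were lower, where 4.67% of all genes were, and none was higher. The 3 lower ones were Prss34, a basophil protease, at 4.02, 2.19 and 1.72 CPM against 0.991, 0.2995 and 1.13 CPM, Mcpt8 at 1.84, 1.75 and 1.91 CPM against 0.610, 0.399 and 1.41 CPM, and Fcer1a, the IgE receptor chain, at -2.68 (SE 1.18). The sums were 184 to 205 CPM and 153 to 194 CPM, and Mcpt4 and Tpsab1 were at 0 in all 6 libraries. Of 15 stromal markers, 3 were lower (Pdgfra, Tagln and Acta2) and 1 higher at that p, against 4.67% and 6.61% of all genes. The higher one was Pdgfrb of the raised stretch on chromosome 18. Acta2, smooth muscle actin, was at 7.48, 4.21 and 7.47 CPM against 2.64, 3.04 and 3.15 CPM. The stromal sums were 433 to 766 CPM in the wild-type and 286 to 1049 CPM in the libraries labelled knockout, and without Pdgfrb 427 to 759 CPM and 280 to 532 CPM. The highest sum labelled knockout was that of replicate 2, with and without it.

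Of 14 neutrophil markers 2 were lower and 1 higher at an unadjusted p under 0.05, against 4.67% and 6.61% of all genes. Of 20 macrophage and 21 dendritic cell markers none reached that p in either direction. The medians of these lists were -0.41, -0.22 and 0.08. Prtn3 and S100a9 were the lower neutrophil markers and Retnlg the higher one. S100a9, a neutrophil alarmin, was at 11.6, 7.39 and 6.78 CPM against 5.33, 3.08 and 2.51 CPM. The summed neutrophil markers were 422 to 523 CPM against 242 to 423 CPM. Macrophage sums were 2990 to 5664 CPM against 1984 to 4848 CPM, the 4848 CPM in replicate 2, and without Csf1r of the raised stretch 2567 to 4999 CPM against 1592 to 3772 CPM, with Cd163 at 0 in all 6, and dendritic cell sums 24422 to 27134 CPM against 23504 to 25907 CPM. Elane was at 0 in all 6, as were Cd3d, Trac, Nkg7 and Gzma of the T and NK cell list, which had 1 of 6 members lower (Lck) and sums of 9.71 to 13.1 CPM against 6.07 to 9.80 CPM. Prtn3 and Robo4 had no counts in the libraries labelled knockout but also none in at least 1 wild-type library. Endothelial sums were 178 to 247 CPM against 122 to 215 CPM, with 2 of 8 lower, among them Eng, and osteoclast sums 280 to 535 CPM against 262 to 422 CPM, with 1 of 8 lower (Nfatc1). Erythroid and megakaryocyte markers had 0 of 7 at that p in either direction, with sums of 76.2 to 134 CPM against 38.4 to 99.8 CPM.

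Among signs of RNA quality, none of 25 ribosomal protein genes and none of 13 mitochondrial mRNAs reached an unadjusted p under 0.05, with medians of -0.10 and -0.08. Of 5 tested genes that tell the sex of the mice, 3 Y-linked ones were higher at that p, against 6.61% of all genes. Uty, a histone demethylase, was at 29.4, 59.1 and 40.5 CPM against 68.1, 75.1 and 71.5 CPM. Ddx3y and Eif2s3y had log2 fold changes of 0.62 and 0.49. All libraries held Y-linked transcripts, as the male label requires, and Xist was at 0.149 to 0.578 CPM.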

How the data were processed

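RNA-seq of total RNA was deposited as raw read counts per Ensembl gene, 1 table per library, and a gene missing from a table was taken as 0. Per the submitters' processing notes, TopHat 1.3.3, Bowtie, SAMtools, bedtools and DESeq were used with the mouse build mm9. For the annotation release, the strand setting and multi-mapping reads, no value is stated in those notes or the labels. Symbols and places were looked up by Ensembl ID in a GRCm38 annotation, not mm9. The members and gene lists were chosen with earlier results of these data known.

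The counts of the 12 dendritic cell libraries were fitted together (4 groups, 16965 genes after edgeR's filter on low counts, TMM factors) with edgeR 4.0.16 quasi-likelihood tests in R 4.3.3, with Benjamini-Hochberg adjustment and a threshold of 0.05. DESeq2 1.42.0 and limma 3.58.1 (voom with sample weights) were alternatives, as were other scaling, no filter, only the compared libraries, a replicate block, leaving out each library, and taking out, library by library, the trend with GC and length. The last was added after seeing the data. The scripts were tested on simulated data. Intervals and floors from counts cover counting error only.

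Named genes were Gpr34, then up to 15 per direction that passed the threshold, had groups apart and reached 1 CPM on average in the group with more, filled up by the smallest unadjusted p where fewer passed (here all), clone and predicted names left out, and up to 4 members per list by smallest p. Others were named after their values were seen, among them Tnf, Il6, Il12b, Ccr7, P2ry10, Gpr82, Cask, Acta2 and the genes of chromosome 18. Replicates of 1 group differed by more than sampling noise (chi-square per gene 24.8 to 95.6).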

Additional observations from a re-analysis of the deposited data

How the results depend on the processing

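After LPS, DESeq2 called 372 genes where edgeR called 0. Leaving out 1 library at a time gave 0 to 2, and leaving out the libraries labelled knockout with over 100 Gpr34 counts gave 6. In naive cells the count was 76 with DESeq2, 1 without a filter, 1 with limma voom, 0 to 1 with 1 library left out and 2 with the GC and length trend removed. The interaction gave 21 with DESeq2 and 3 without the doubted libraries. The spleen count of 36 became 190 without composition factors (7 higher and 183 lower), 873 with DESeq2, 790 with limma voom and 3 with the replicate block. Replicate numbers were not treated as pairs: deviations of same-numbered LPS libraries correlated at -0.00447 and -0.0441. For same-numbered naive libraries the correlations were 0.0280 and -0.0894. Between naive and LPS libraries of the same label and number they ran from -0.00779 to 0.0747. With the replicate block 0 genes were called after LPS, with 1475 at an unadjusted p under 0.05. The 30 named genes kept their direction in every alternative run. The naming rule, which took only genes without overlap between the groups, nearly fixed this in advance, since every run reused the same counts.

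Some genes without a call changed sign. Without LPS replicate 2 labelled knockout, Camk2a went from 8.54 to -0.58 and Tcof1 from 2.605 to -0.07. With the doubted libraries left out, the log2 fold change was -0.0018 for P2ry10, 0.0962 for Tnf, 0.0221 for Il6 and -0.1869 for Ccr7. With 1 library left out at a time it ran from -0.1460 to 0.6357 for Csf1r, from -0.0891 to 0.2346 for Ccr7 and from -0.9605 to 0.1252 for Gpr82. For Il12b it was 0.0055 with the replicate block and 0.0140 with the block and the trend removed. The cause was not tested.

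With 3 libraries a group, small differences could not be resolved, and low genes rest on few counts.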

Other observations

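Of the 15 named lower genes, Me2, Rnmt, Wdr55 and Slc14a1 lie on chromosome 18, where 13 of 351 tested genes were lower at an unadjusted p under 0.05 (3.7%), against 4.67% of all genes. The raised stretch of the same chromosome, in replicate 2 labelled knockout, does not include them.

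Hmgcs1, Gbp5 and Psmb9, genes of sterol synthesis, interferon response and the immunoproteasome, had 0 counts in all 12 dendritic cell libraries. A gene missing from a count table was taken as 0, so a gene ID that was not counted cannot be told from a gene without reads. These zeros are therefore not read as absence of expression.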
